A study of Mus musculus with 10 samples.

Results

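The 4 myogenic regulatory factors, Myod1, Myog (myogenin), Myf5 and Myf6 (also called MRF4), and the satellite cell factor Pax7 were followed through 10 RNA-seq libraries of mouse skeletal muscle. These 5 genes were chosen by name, mapped from their Ensembl identifiers with a GRCm38 annotation, and all 5 were among the 16112 genes of the deposited count tables. The study sequenced total RNA from the extensor digitorum longus (EDL) and psoas, which are usually classed as fast-twitch muscles, and from the soleus, which is usually classed as slow-twitch, to find how their transcriptomes differ. The groups held 3 EDL, 3 psoas and 4 soleus libraries, with no treatment named in the labels, although the mice belonged to another study as well. All mice were wild type, from a colony of B6C3Fe a/a-Ttnmdm/J, a strain that carries the mdm allele of titin. The EDL mice were 42, 54 and 44 days old, the psoas mice 42, 54 and 44 days, and the soleus mice 42, 44, 32 and 44 days, for replicates 1 upwards. Among the 7 animal codes of the labels, 3 recur in libraries of different muscles, and the study counts fewer mice than codes, so p-values measure only the spread between these libraries, some of which share a mouse. RNA came from muscle tissue, not from isolated fibers or sorted cells, so each library mixes fibers with the other cells of the muscle.

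Myogenic regulatory factors are basic helix-loop-helix transcription factors that bind E-box sequences as dimers with E proteins and switch on muscle genes. In the usual account, Pax7 marks satellite cells, the stem cells beneath the basal lamina of the fiber, Myf5 and Myod1 mark satellite cells and the myoblasts that they give rise to, Myog acts as myoblasts differentiate, and Myf6 is the factor most expressed in mature fibers. Nuclei inside fibers also transcribe Myod1, Myog and Myf6. In bulk RNA, fewer cells of a type and less RNA per cell cannot be told apart.

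Total counts per library were 15016122 to 47825953 in EDL, 13820086 to 50431713 in psoas and 12737971 to 26848423 in soleus, so 3 counts, the upper limit that a count of 0 allows, equal 0.0595 to 0.236 CPM, counts scaled to a common library size. This floor covers counting error only. No pair of libraries of the same muscle agreed within sampling noise. The muscle labels could be checked against myosin heavy chain genes. Myh7 (slow myosin) averaged 9824 normalized CPM in soleus, 51.5 in EDL and 6.13 in psoas, and Myh4 (fast 2B myosin) averaged 1228, 44038 and 53922. The marker lists of other cells also differed. The summed level of 6 tendon genes was 639 to 741 normalized CPM in EDL, 30.3 to 80.2 in psoas and 80.9 to 415 in soleus, and that of 6 fibroblast genes was 1925 to 3468, 619 to 945 and 630 to 1248. The authors trimmed the reads of 4 libraries, EDL 1 and 2 and psoas 1 and 2, and of no soleus library, so that trimming and muscle were partly confounded.

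The 4 factors are short genes of 3 exons, and the annotation (GENCODE, GRCm38) puts no other gene over any of the 5. Myod1 (ENSMUSG00000009471) lies at chr7:46376474-46379099 on the plus strand, and Myog (ENSMUSG00000026459) at chr1:134289989-134292548 on the plus strand. Myf5 (ENSMUSG00000000435), at chr10:107482908-107486134, and Myf6 (ENSMUSG00000035923), at chr10:107492853-107494737, are neighbours on the minus strand with 6718 bases between them. Pax7 (ENSMUSG00000028736) spans 96467 bases at chr4:139737062-139833528 on the minus strand, with 12 distinct exons. The nearest other gene with counts was Ppfia4, on the opposite strand 4234 bases beyond Myog.

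Because the 4 factors are paralogs, the stretch of their coding sequence that is most alike is shown, read from the GRCm38 genome. It is a run of 90 bases in exon 1, in the part that codes for the helix-loop-helix. Capitals mark the 59 positions (65.6%) that were identical in all 4. The coordinates are chr7:46377052-46377141 (plus) for Myod1, chr1:134290351-134290440 (plus) for Myog, chr10:107485541-107485630 (minus) for Myf5 and chr10:107494284-107494373 (minus) for Myf6.
Myod1: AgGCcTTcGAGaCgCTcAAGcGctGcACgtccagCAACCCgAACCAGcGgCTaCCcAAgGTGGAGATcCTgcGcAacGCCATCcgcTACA
Myog: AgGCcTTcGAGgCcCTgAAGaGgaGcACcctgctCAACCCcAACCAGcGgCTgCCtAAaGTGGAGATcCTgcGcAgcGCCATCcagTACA
Myf5: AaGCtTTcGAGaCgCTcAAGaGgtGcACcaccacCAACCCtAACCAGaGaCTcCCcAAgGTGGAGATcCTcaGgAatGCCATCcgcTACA
Myf6: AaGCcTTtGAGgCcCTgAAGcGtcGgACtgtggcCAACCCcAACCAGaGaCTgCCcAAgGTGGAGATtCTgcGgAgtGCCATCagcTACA
Over the whole coding sequence, aligned bases were 49.4% to 64.0% identical between pairs of factors, with Myod1 and Myf5 the most alike. In the stretch above, pairs were 73.3% to 83.3% identical. The longest run shared without a mismatch by any pair of transcripts was 26 bases, between Myod1 and Myf5, and the shortest was 12, between Myog and Myf5. Such runs are shorter than a sequencing read. The handling of reads that align to several places is not given in the sources used here.

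Myf6 was by far the most abundant of the 5 genes in every library. On the FPKM scale, normalized CPM divided by the summed exon length in kilobases, which allows levels of different genes to be compared, Myf6 averaged 48.8 ± 1.62 in EDL (SD, n = 3), 53.2 ± 11.6 in psoas (SD, n = 3) and 38.4 ± 3.09 in soleus (SD, n = 4). It made up 84.3% to 94.7% of the summed FPKM of the 4 factors. Ranked by mean FPKM over the 10 libraries, Myf6 was 676 of the 16032 genes with a symbol, above 95.8% of them. Myog was above 63.6% of genes and Myod1, near the middle, above 50.6%. Myf5 was above 24.9% and Pax7 above 7.85%. The summed exon length of Pax7 was 5860 bases, while its transcript with the longest coding sequence had 1725. With the shorter length, the FPKM and rank of Pax7 would be higher. For each of the 4 factors, the lengths by both measures were the same.

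**Figure D1:**
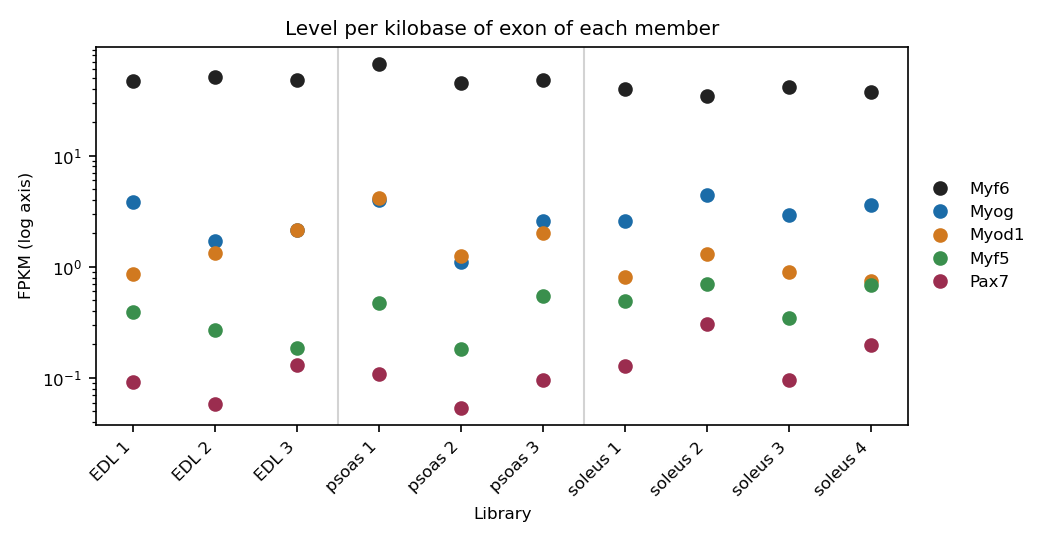
FPKM on a log axis of the 5 members in each of the 10 libraries (1 point per gene and library, grey lines between muscles). Myf6 lies above all other members in every library, and Myog and Myod1 change places in psoas 1 and psoas 2. With the summed exon length used here, Pax7 lies lowest in every library.

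The order Myf6, Myog, Myod1, Myf5, Pax7 held in 8 of the 10 libraries. The last place of Pax7 in this order rests on its summed exon length of 5860 bases. In psoas 1 and psoas 2, Myod1 was above Myog. In soleus, the ranges of neighbouring genes in this order did not overlap at any step, with mean FPKM of 3.38 ± 0.825 for Myog, 0.937 ± 0.252 for Myod1, 0.556 ± 0.170 for Myf5 and 0.182 ± 0.0933 for Pax7 (SD, n = 4). The narrowest step was that between Myod1, at 0.737 or more, and Myf5, at 0.704 or less. In EDL and psoas the ranges of Myog and Myod1 overlapped, and the other steps were apart. In EDL, mean FPKM was 2.55 ± 1.13 for Myog and 1.43 ± 0.643 for Myod1 (SD, n = 3). In psoas, it was 2.57 ± 1.44 for Myog and 2.47 ± 1.49 for Myod1 (SD, n = 3). Myf5 and Pax7 were low in both muscles, at 0.283 ± 0.104 and 0.0936 ± 0.0367 in EDL and 0.398 ± 0.191 and 0.0863 ± 0.0284 in psoas. Counts behind these levels ranged from 662 to 3389 per library for Myf6, 26 to 245 for Myog, 21 to 291 for Myod1, 6 to 49 for Myf5 and 5 to 60 for Pax7.

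Between muscles, each gene was compared by edgeR's quasi-likelihood test over all 16112 genes, with Benjamini-Hochberg adjusted p-values, and a gene was called where it passed an adjusted p of 0.01 and differed by more than 2 times. The study used the same thresholds. None of the 5 members was called in any comparison, where 2.11% of all genes were called for psoas against EDL, 5.77% for soleus against EDL and 5.69% for soleus against psoas. DESeq2 and limma-voom also called 0 members at these thresholds. At an adjusted p under 0.05, edgeR passed 1 member, Myod1, in soleus against psoas, where 14.5% of all genes passed, and 0 members in psoas against EDL (11.1% of all genes) and in soleus against EDL (18.6%). At an unadjusted p under 0.05, it passed 0 members in psoas against EDL (29.0% of all genes), 2 in soleus against EDL (Myf5 and Pax7, 35.0%) and 3 in soleus against psoas (Myod1, Myf6 and Pax7, 28.4%).

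**Figure D2:**
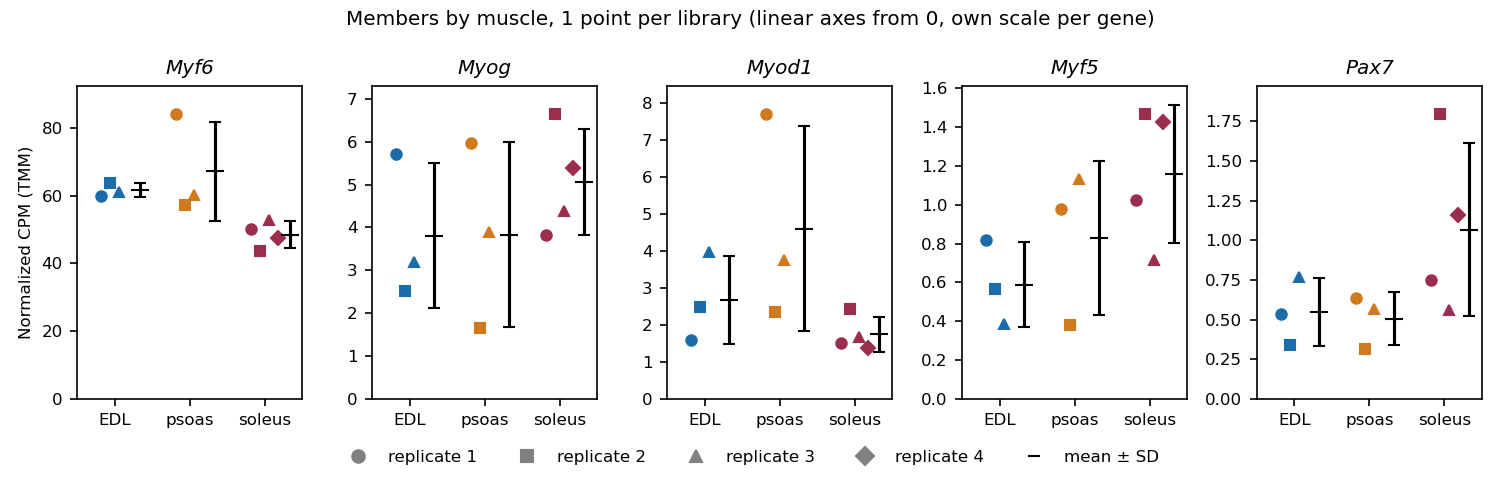
TMM-normalized CPM of each member in the EDL, psoas and soleus libraries (1 point per library, shape for the replicate number, mean and SD in black, linear axes from 0 with a scale for each gene). The 4 soleus libraries lie below all 6 others for Myf6, and psoas 1 stands above the rest for Myod1.

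Pax7, the paired-box factor of satellite cells, had 0.537, 0.339 and 0.769 normalized CPM in EDL 1 to 3 and 0.633, 0.317 and 0.566 in psoas 1 to 3. In soleus 1 to 4 it had 0.753, 1.79, 0.558 and 1.16. Soleus 2 and soleus 4 were above every EDL and psoas library, and soleus 1 and 3 lay within their range. The fitted difference of soleus minus EDL was 1.05 on the log2 scale (SE 0.47, 95% interval 0.012 to 2.09, adjusted p = 0.138), and that of soleus minus psoas was 1.09 (SE 0.49, interval 0.015 to 2.16, adjusted p = 0.170). EDL and psoas differed by -0.036 (psoas minus EDL, SE 0.53, interval -1.19 to 1.12, adjusted p = 0.976). At 5 to 60 counts per library, these intervals leave room for more than a 2-fold difference in each direction between EDL and psoas.

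Myf5, the factor that is switched on first in the embryo and is held ready in many satellite cells, had 0.817, 0.565 and 0.384 normalized CPM in EDL 1 to 3. It had 0.976, 0.380 and 1.13 in psoas 1 to 3, and 1.03, 1.47, 0.718 and 1.43 in soleus 1 to 4. The soleus libraries overlapped with those of both other muscles. Soleus minus EDL was 0.96 (log2, SE 0.43, 95% interval 0.014 to 1.91, adjusted p = 0.137), soleus minus psoas 0.49 (SE 0.44, interval -0.46 to 1.45, adjusted p = 0.507) and psoas minus EDL 0.47 (SE 0.46, interval -0.55 to 1.49, adjusted p = 0.544). Per kilobase of summed exons, Myf5 exceeded Pax7 in all 10 libraries, by 1.41 to 4.69 times in EDL, 3.38 to 5.63 times in psoas and 2.30 to 3.84 times in soleus. These ratios rest on 5860 bases for Pax7, whose transcript with the longest coding sequence has 1725. By counts, without lengths, Pax7 was above Myf5 in EDL 3 and soleus 2.

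Myod1, which commits cells to the muscle lineage and is also transcribed in fibers, had the largest fitted difference of the members between muscles, although not without psoas 1. It had 1.59, 2.47 and 3.95 normalized CPM in EDL 1 to 3 and 7.68, 2.35 and 3.75 in psoas 1 to 3. In soleus 1 to 4 it had 1.51, 2.42, 1.67 and 1.37. Psoas 1 was the highest of all libraries, above the sum of the other psoas libraries, and soleus 2 lay just above psoas 2, so that the groups overlapped. In the study's supplement, psoas 1 also had the lowest RNA integrity number of the 10 libraries. The part of RNA quality in these levels was not tested. Soleus minus psoas was -1.40 (log2, SE 0.42, 95% interval -2.32 to -0.48, edgeR adjusted p = 0.0451), a 2.64-fold lower level in soleus. Without psoas 1 this became -0.81 with an adjusted p of 0.234, and the differences of Pax7, at 1.29, and Myog, at 0.86, were then larger. The adjusted p was above 0.05 in 7 of the 10 fits that each left out 1 library, namely those without EDL 2, psoas 1, psoas 3 or any of the soleus libraries. Soleus minus EDL was -0.57 (SE 0.42, interval -1.498 to 0.35, adjusted p = 0.357) and psoas minus EDL 0.83 (SE 0.44, interval -0.14 to 1.79, adjusted p = 0.239), which fell to 0.18 without psoas 1 (adjusted p = 0.805). Among libraries with untrimmed reads, soleus held 1.37 to 2.42 normalized CPM (n = 4) against 3.75 in the only such psoas library and 3.95 in the only such EDL library. With trimming in the model, soleus minus psoas was -1.63 (adjusted p = 0.0839).

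Myog, the factor of differentiating myoblasts that rises again in denervated fibers, had 5.72, 2.53 and 3.19 normalized CPM in EDL 1 to 3. It had 5.96, 1.65 and 3.89 in psoas 1 to 3, and 3.83, 6.64, 4.39 and 5.38 in soleus 1 to 4. EDL 1, psoas 1 and soleus 2 were the highest of their groups, and the 3 groups overlapped. Soleus minus EDL was 0.41 (log2, SE 0.40, 95% interval -0.47 to 1.30, adjusted p = 0.491), soleus minus psoas 0.39 (SE 0.41, interval -0.51 to 1.28, adjusted p = 0.587) and psoas minus EDL 0.028 (SE 0.43, interval -0.91 to 0.97, adjusted p = 0.977).

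Myf6, the factor of mature fibers, had 59.9, 63.9 and 61.1 normalized CPM in EDL 1 to 3 and 84.0, 57.3 and 60.3 in psoas 1 to 3. In soleus 1 to 4 it had 50.0, 43.6, 52.8 and 47.5. All 4 soleus libraries were below all EDL libraries, as for 14.3% of all genes, and below all psoas libraries, as for 11.9%. The share of genes below both muscles is not given here. The difference was small, -0.35 for soleus minus EDL (log2, SE 0.16, 95% interval -0.70 to 0.0031, adjusted p = 0.146) and -0.47 for soleus minus psoas (SE 0.16, interval -0.82 to -0.12, adjusted p = 0.0719), and neither passed an adjusted p of 0.05 by edgeR. For soleus minus psoas it was passed by DESeq2 (adjusted p = 0.0319) and, with the animal code as a random effect, by limma-voom (adjusted p = 0.0480, against 0.0827 without it). Without psoas 1, the library with the highest Myf6, soleus minus psoas was -0.30 (adjusted p = 0.236). Its intervals were the narrowest of the 5, and for all 3 comparisons they lay within a 2-fold difference in either direction. Psoas minus EDL was 0.13 (SE 0.17, interval -0.25 to 0.50, adjusted p = 0.677). Among libraries with untrimmed reads, soleus held 43.6 to 52.8 (n = 4) against 61.1 in 1 EDL and 60.3 in 1 psoas library.

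**Figure D3:**
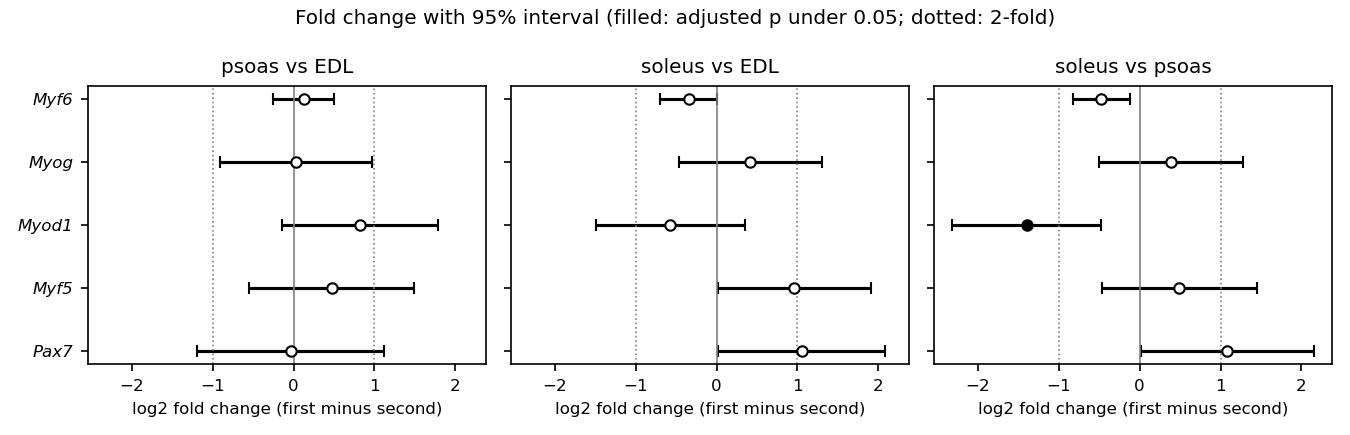
Fitted log2 fold change (point) and 95% interval (bar) of each member in the 3 comparisons, written as the first muscle minus the second; the filled point has an adjusted p under 0.05 and dotted lines mark a 2-fold change. The filled point is Myod1 in soleus against psoas at -1.40, and the Myf6 intervals are the narrowest in each panel.

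The balance between members was described per library as a ratio of FPKM, with no test. Myog to Myod1 was 3.17, 3.41, 3.26 and 4.88 in soleus 1 to 4. It was 0.967, 0.875 and 1.29 in psoas 1 to 3, below every soleus library. In EDL it was 4.49, 1.27 and 1.003, so that EDL 1 lay within the soleus range and EDL 2 and 3 within that of psoas. Myf6 to Myog was 12.4 to 29.9 in EDL, 16.7 to 41.2 in psoas and 7.77 to 15.5 in soleus. Soleus lay below psoas in every library for this ratio and overlapped with EDL. The share of other gene pairs whose ratios separate soleus from psoas is not given here. Both ratios reuse the member levels above, among them the Myod1 difference, and are not separate results.

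Of the 7 animal codes, 3 had a soleus library and a library of another muscle, which allows a comparison within a code. The pair of soleus 1 and psoas 1 sets untrimmed against trimmed reads, and the other pairs were untrimmed in both libraries. Myod1 was lower in soleus in 3 of 3, with soleus at 0.196 times psoas 1, 0.613 times EDL 3 and 0.366 times psoas 3. Myf6 was also lower in 3 of 3, at 0.596, 0.713 and 0.788 times. Of all genes, 20.9% were lower in soleus in 3 of 3. Pax7 was higher in soleus in 3 of 3, at 1.19, 2.33 and 2.05 times, and Myf5 at 1.05, 3.81 and 1.26 times, where 23.6% of all genes were higher in 3 of 3. Myog was higher in 2 of 3, at 0.643, 2.08 and 1.38 times. The ratio of Myog to Myod1 was 3.17, 3.41 and 4.88 in the soleus libraries against 0.967, 1.003 and 1.29 in the others. These are the same libraries as above and not further samples.

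**Figure D4:**
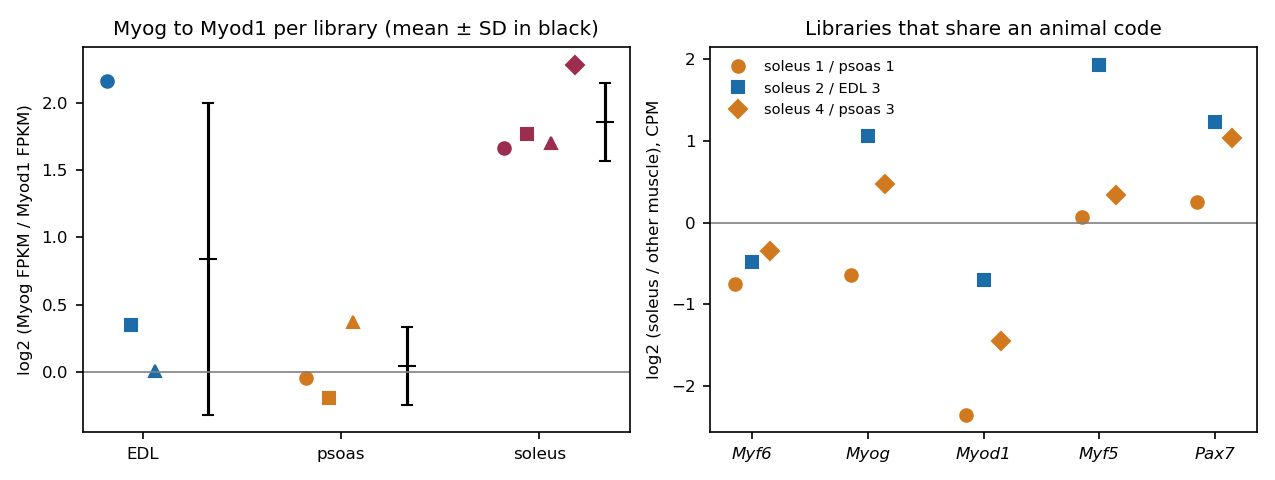
Left, log2 of the FPKM ratio of Myog to Myod1 in each library, with mean and SD in black; right, log2 of the ratio of CPM between a soleus library and the library of another muscle with the same animal code (orange for psoas, blue for EDL). The soleus ratios of Myog to Myod1 lie above all psoas ratios, and in the right panel all 3 points lie below 0 for Myf6 and Myod1 and above 0 for Myf5 and Pax7.

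Other genes of the myogenic program were taken from lists. Of all genes, edgeR called 0.540% higher and 1.57% lower in psoas than in EDL, 3.59% higher and 2.18% lower in soleus than in EDL, and 2.99% higher and 2.71% lower in soleus than in psoas. For psoas against EDL, soleus against EDL and soleus against psoas, that was 340, 929 and 917 of 16112 genes. DESeq2 called 1095, 1520 and 1382, and limma-voom 353, 976 and 818. An unadjusted p under 0.05 by edgeR was reached by 29.0%, 35.0% and 28.4% of all genes. The list counts below are to be read against these. Of 17 satellite cell genes, 16 were measured (Pax3 was not among the genes in the tables used here). None was called for psoas against EDL by edgeR or limma-voom, 3 were by DESeq2, and 4 had an unadjusted p under 0.05. In soleus, Sdc4 (syndecan-4, a surface proteoglycan of satellite cells) rose against both muscles, from 26.3 ± 3.41 normalized CPM in EDL (SD, n = 3) and 23.9 ± 5.81 in psoas (SD, n = 3) to 59.5 ± 10.3 in soleus (SD, n = 4), with an adjusted p of 0.00349 against EDL and 0.00189 against psoas. Itga7, a laminin receptor of fibers and satellite cells, rose against psoas by 1.21 (log2, SE 0.26, adjusted p = 0.00916), a call that held in 10 of 25 alternatives. Ncam1, an adhesion molecule of satellite cells, neuromuscular junctions and nerve, rose against psoas by 1.85 (SE 0.32, adjusted p = 0.00323). In all, 1 of 16 was called higher and 0 lower for soleus against EDL, and 3 higher and 0 lower for soleus against psoas. The median difference of the list was 0.27 for soleus minus EDL, 0.41 for soleus minus psoas and -0.31 for psoas minus EDL, where the median of all genes was -0.049, 0.019 and 0.0081. Their summed level was 269 to 305 normalized CPM in soleus, 241 to 267 in EDL and 163 to 175 in psoas. A few abundant genes carry this sum. In soleus 1, Cd34, Sdc4 and Itga7 had 59.7, 58.4 and 54.6 of 269, so it does not describe the list as a whole. Several of these genes are also expressed outside satellite cells, and 1 of them, Cd34, is in the fibroblast list too. The nerve is also a source of Ncam1, and the summed level of Schwann cell genes (4 of 5 measured, Sox10 not) was 29.3 to 39.4 in soleus, 32.3 to 52.3 in EDL and 17.5 to 81.7 in psoas. The part of other cells in these differences was not tested.

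The dimer partners of the factors, the E protein genes Tcf3, Tcf4 and Tcf12, had 0 of 3 called in each comparison by edgeR, DESeq2 and limma-voom, with median differences of -0.32 (psoas minus EDL), 0.040 (soleus minus EDL) and 0.42 (soleus minus psoas). At an unadjusted p under 0.05, 2 passed for psoas against EDL, 0 for soleus against EDL and 1 for soleus against psoas. Among 14 genes of inhibitors, such as the Id proteins that sequester E proteins, 13 were measured (Mdfi was not), and 1 was called by edgeR. Id3 was higher in soleus than in psoas by 1.502 (log2, SE 0.27, adjusted p = 0.00372), with 13.4 ± 4.26 normalized CPM (SD, n = 4) against 4.70 ± 0.553 (SD, n = 3). The EDL libraries, at 9.44 to 16.1, lay in the range of soleus. In the other comparisons edgeR and limma-voom called 0 inhibitors. DESeq2 called 2 for psoas against EDL and 0 for soleus against EDL, where 7 and 0 had an unadjusted p under 0.05. The median of the inhibitors was -1.17 for psoas minus EDL, -0.30 for soleus minus EDL and 0.81 for soleus minus psoas. Tendon, fibroblast and macrophage genes were also lower in psoas than in EDL, with list medians of -4.04, -1.43 and -1.24, and their part in the inhibitor values was not tested.

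Among 26 cofactors and upstream regulators, all measured, edgeR called 1 for psoas against EDL, 6 for soleus against EDL and 3 for soleus against psoas. DESeq2 called 4, 6 and 3, limma-voom called 1, 5 and 2, and 12, 15 and 13 had an unadjusted p under 0.05. Tead1, which binds the MCAT element of muscle promoters, was lowest in EDL, with 25.1 to 41.4 normalized CPM against 83.7 to 118.5 in psoas and 81.9 to 180.6 in soleus. It rose by 1.69 in psoas (log2, SE 0.29, adjusted p = 0.00645) and by 2.02 in soleus (SE 0.28, adjusted p = 0.000848), both against EDL. Dach2, a transcriptional corepressor, rose in soleus against EDL by 4.09 (SE 0.65, adjusted p = 0.00188), from 1.105 ± 0.429 (SD, n = 3) to 19.0 ± 13.1 (SD, n = 4). Hdac9, a class IIa deacetylase that binds MEF2 factors, rose in soleus by 1.27 against EDL (adjusted p = 0.00625) and by 1.69 against psoas (adjusted p = 0.00158). Hdac5, of the same class, rose against EDL by 1.004, close to the 2-fold threshold, and the call held in 9 of 25 alternatives.

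Eya4, a transcriptional coactivator and phosphatase, fell in soleus by 2.29 against EDL (adjusted p = 0.00225) and by 2.54 against psoas (adjusted p = 0.00126). It had 4.38 to 10.9 normalized CPM in soleus, 27.6 to 32.7 in EDL and 20.2 to 56.0 in psoas. Six2 had at most 1 count in a soleus library, under the floor of 3 counts per library. With every soleus library set at this floor, Six2 would be 4.73-fold lower than in EDL and 2.30-fold lower than in psoas. The floor is the upper limit for a count of 0, and soleus 2 had 1 count, so these are not strict bounds. The median of these 26 genes was 0.41 for psoas minus EDL, 0.40 for soleus minus EDL and 0.076 for soleus minus psoas.

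Of 20 target and differentiation genes, 17 were measured, without Chrng, Mymk and Mymx. None was called for psoas against EDL by edgeR, where DESeq2 called 3, limma-voom called 1 and 7 had an unadjusted p under 0.05. For soleus against EDL, 2 were called higher and 4 lower, and for soleus against psoas, 3 higher and 3 lower. Genes of the neuromuscular junction differed in direction. Musk, its receptor kinase, rose in soleus against EDL by 1.88 (log2, SE 0.40, adjusted p = 0.0088). Chrne, the acetylcholine receptor subunit of the adult junction, fell by 1.57 (SE 0.29, adjusted p = 0.00465). Against psoas, the receptor subunit genes Chrna1 and Chrnd rose by 1.70 (adjusted p = 0.00192) and 1.98 (adjusted p = 0.00895), the latter at 0.817 to 2.27 normalized CPM in soleus and in 5 of 24 alternatives only.

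Among structural genes, Des (desmin) rose in soleus against EDL by 1.33 (adjusted p = 0.00641), and Tnnt2 (cardiac troponin T) against psoas by 1.72 (adjusted p = 0.00987), a call kept in 6 of 25 alternatives. Neither level was particular to soleus. Des had 443 to 716 normalized CPM in psoas, overlapping with 440 to 650 in soleus, against 166 to 302 in EDL. Tnnt2 had 2.59 to 2.75 in EDL, overlapping with 2.60 to 3.43 in soleus, against 0.317 to 1.42 in psoas. Myh8, the perinatal myosin heavy chain, fell in soleus by 1.32 against EDL (adjusted p = 0.00283) and by 1.80 against psoas (adjusted p = 0.000475), from 933 ± 31.1 (SD, n = 3) and 1303 ± 256 (SD, n = 3) to 373 ± 93.9 (SD, n = 4). Actc1 (cardiac actin) fell against EDL by 3.49 (adjusted p = 0.00896), although EDL 2, at 43.2, was far below EDL 1 and 3, at 363 and 378. Ckm (muscle creatine kinase) fell against psoas by 1.60 (adjusted p = 0.0025). Gadd45a, a stress and growth arrest gene, fell by 1.53 against EDL (adjusted p = 0.00301) and by 1.93 against psoas (adjusted p = 0.000805). The list medians were -0.24, -0.035 and 0.43 for psoas minus EDL, soleus minus EDL and soleus minus psoas.

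**Figure D5:**
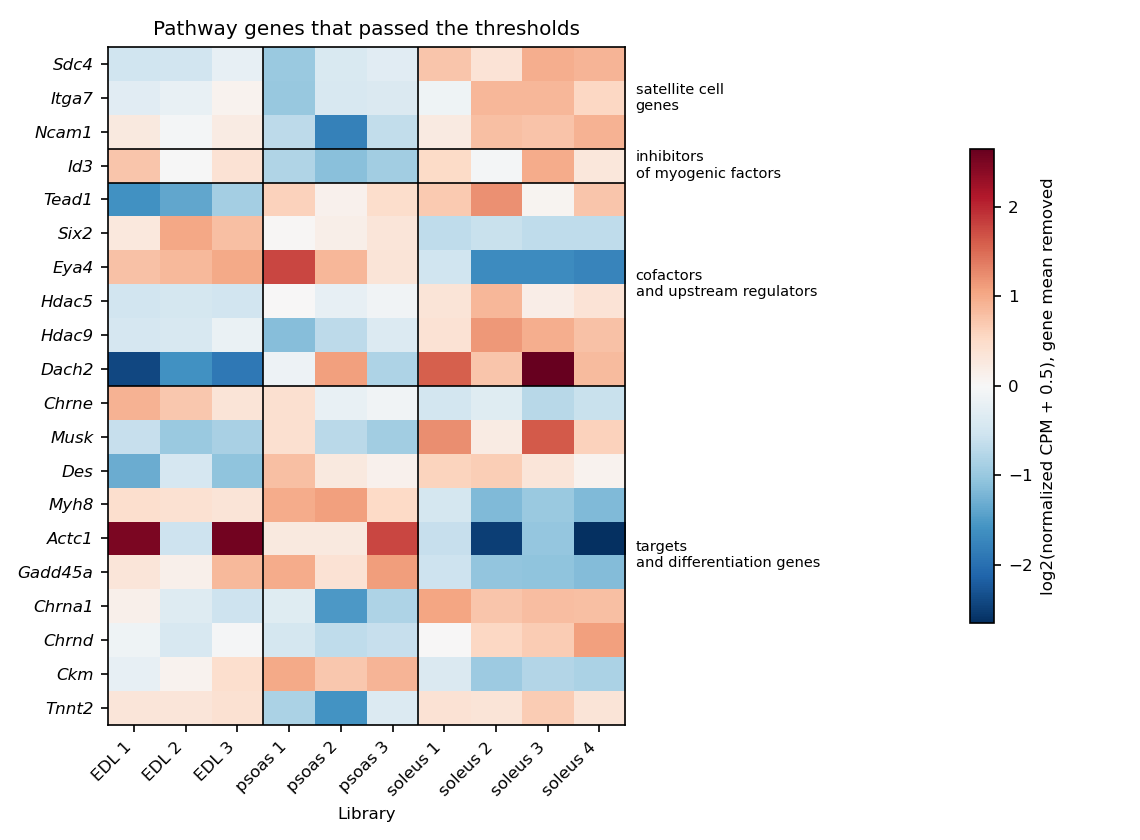
Heat map of the 20 genes of the satellite cell, inhibitor, cofactor and target lists called in any comparison; colour is log2(normalized CPM + 0.5) with the mean of each gene over the 10 libraries removed. Soleus columns are high for Sdc4, Hdac9 and Chrna1 and low for Eya4, Six2, Myh8 and Gadd45a, and Tead1 and Dach2 are lowest in EDL.

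Genes of the cell cycle, of which 8 of 10 were measured (Birc5 and Aurkb were not), had 0 called in each comparison by edgeR, DESeq2 and limma-voom, and 3, 1 and 2 had an unadjusted p under 0.05 for psoas against EDL, soleus against EDL and soleus against psoas. Their summed level was 34.2 to 66.3 normalized CPM in EDL, 26.6 to 28.9 in psoas and 27.8 to 39.6 in soleus. EDL 1, the EDL library with the highest Myog, alone had 66.3, and EDL 2 and 3, at 34.4 and 34.2, lay within the range of soleus. For the other cell types, tendon genes were called lower in psoas than in EDL in 6 of 6 and higher in soleus than in psoas in 4 of 6. Fibroblast genes were called lower than EDL in 1 of 6 in psoas (Dcn) and 3 of 6 in soleus (Pdgfra, Dcn and Lum), and the macrophage gene Mrc1 was called lower than EDL in both. Among endothelial, Schwann cell, adipocyte, smooth muscle and pericyte, and erythroid genes, 0 were called by edgeR and limma-voom in the 3 comparisons. DESeq2 called adipocyte genes only, 1 for soleus against EDL and 2 for soleus against psoas. At an unadjusted p under 0.05 by edgeR, 5 of 5 erythroid genes passed for soleus against psoas (list median -2.43, 28.4% of all genes). For adipocytes, 4 of 5 passed for soleus against EDL (median 1.94, 35.0%) and 4 of 5 against psoas (median 1.78, 28.4%). For endothelium, 4 of 5 passed for psoas against EDL (median -0.57, 29.0%), and the other counts of these lists were 0 to 2.

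Genes whose pattern over the 10 libraries was most like that of each member were named by Pearson's correlation of log2 normalized CPM, among the genes with a mean of at least 1 normalized CPM, as a description. All points share libraries, depth and muscle, and the highest of 12663 or 12664 coefficients is large by selection. For Myod1 they were Bcorl1 (r = 0.947), Atp11a (0.942) and Sobp (0.936), and for Myog Prkar1a (0.888), Ptpn23 (0.868) and Tenm4 (0.868). For Myf5 they were Atf7ip (0.951), Pdcd11 (0.946) and Arid5b (0.936), for Myf6 Aimp2 (0.946), Med4 (0.927) and Cnot4 (0.925), and for Pax7 Socs4 (0.939), Glg1 (0.939) and Sesn3 (0.936). With the muscle means removed, the first-placed genes were Hk2 for Myod1 (0.968), Tenm4 for Myog (0.940), Ano1 for Myf5 (0.973), Mtss1 for Myf6 (0.971) and Pycr1 for Pax7 (0.994). Tenm4 and Aimp2 were among the 3 leading genes of their member by both measures.

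The E-box, CANNTG, is the sequence that myogenic factors bind, and Myog is a known target of the family, so its promoter is shown. RefSeq promoters (GRCm38.p6) were matched for 3 of the 5 members, Myog, Myf5 and Pax7. The 150 bases before the annotated start of Myog, chr1:134289839-134289988 on the plus strand, hold 1 E-box, in capitals.
Myog: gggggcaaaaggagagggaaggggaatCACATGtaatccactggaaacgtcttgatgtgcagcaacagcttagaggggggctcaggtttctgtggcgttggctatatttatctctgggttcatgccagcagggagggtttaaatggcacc
Over the 250 bases before the RefSeq start, on either strand, CANNTG occurred 2 times for Myog, 138 and 12 bases before the start, and 0 times for Myf5 and Pax7, where 66.2% of 32851 promoters held it. The RefSeq start of Myog lies downstream of the start in GENCODE, which ends the stretch shown, so the first of these is the E-box in capitals and the second lies inside exon 1 of GENCODE. CAGCTG, a form of the E-box that also counts as CANNTG, and TATAAA occurred in none of the 3, and in 13.0% and 12.4% of all promoters. These matches describe letters in the window and were not related to the levels above.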

How the data were processed

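Per the labels and the study's methods, total RNA was made into libraries with a stranded, ribosomal-RNA-depleting kit. Reads of 4 libraries of low base quality were trimmed by the authors (Trimmomatic 0.32) before read pairs were aligned to GRCm38.p4 (TopHat2 2.1.1). The authors deposited gene counts that are not normalized. The strand setting of the counting, the handling of reads with several alignments and the run of each library are not given in the sources used here. All 16112 deposited genes had at least 10 reads in at least 3 libraries.

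Counts were normalized by TMM and tested in 1 edgeR 4.0.16 quasi-likelihood fit over the 10 libraries (R 4.3.3), where DESeq2 1.42.0 and limma 3.58.1 served as alternatives. The code was tested on simulated counts. FPKM used summed exon lengths of GENCODE (GRCm38). Totals of 12737971 to 50431713 counts set the precision. Coding sequences were aligned with MAFFT 7.526. Genes named were all members, from each list at most the 6 called genes with the smallest adjusted p per comparison, and the 3 genes most like each member. The members and lists were chosen with earlier results of these data known. 1 listed gene is not reported here. Replicate numbers were not used to pair the samples, since only psoas 1 and soleus 1 share both a number and an animal code. Alternatives changed the test, normalization, filter, covariates, block, depth and libraries. The covariate called run proxy is not a run named in the labels. It splits the libraries into trimmed, untrimmed at 44 days of age and untrimmed at other ages.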

Additional observations from a re-analysis of the deposited data

Results flagged for a closer look

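In soleus, the only group of 4 libraries, the gap between the highest or lowest library and its neighbour, divided by the range of the group, was compared with Dixon's 95% critical value. Of 41 gene levels and ratios tested, 6 were above it, where chance gives about 1 in 20 for independent values that were not selected. The items tested were the members, their ratios and the listed genes called between muscles in these data. All come from the same 4 libraries, so the 6 cannot be set against that rate. For the members, the log2 ratio of Myog to Myod1 had soleus 4 at 2.29 and the others at 1.66 to 1.77 (gap 0.8291 of the range). Eya4 had 10.9 normalized CPM in soleus 1 against 4.38 to 4.70 in the others (0.950). Gadd45a had 4.45 in soleus 1 against 2.74 to 2.99 (0.855). Pdgfra had 30.2 in soleus 1 against 26.3 to 26.7 (0.912). Myh4 had 112.9 in soleus 2 against 1548 to 1692 (0.909). Tnnt2 had 3.43 in soleus 3 against 2.602 to 2.74 (0.837). The normalized CPM of none of the 5 members was past the critical value.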

How the results depend on the processing

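No member passed both thresholds of the study in any of the 25 alternatives (24 for Myf5 and Pax7, which a filter of a mean of at least 1 CPM removed), and the only added count, 1 in soleus against psoas, came from the threshold of 0.05 (Myod1, -1.40). Over its alternatives, the adjusted p of Myod1 in soleus against psoas ran from 0.0125 (DESeq2) to 0.703 (test against a 2-fold change), with 11 of 25 under 0.05, and that of Myf6 was under 0.05 in 2, 0.0319 (DESeq2) and 0.0480 (limma-voom with animal code as a random effect). Deviations of the 3 pairs of libraries with the same animal code correlated at 0.187 to 0.381. The direction of every member was kept for soleus against both muscles. For psoas against EDL, Myod1 and Myf5 kept their direction, and the other members, with differences near 0, did not. Myog turned to -0.053 with upper-quartile normalization, -0.011 with the CPM filter, -0.029 with age and, without 1 library, as far as -0.50 (range -0.50 to 0.42). Pax7 turned to 0.17 with limma-voom, 0.0092 with trimming, 0.016 with the run proxy, 0.28 with animal code as a random effect and 0.25 without EDL 3 (range without 1 library -0.31 to 0.25), and Myf6 to -0.10 without psoas 1 (range -0.10 to 0.22). The cause was not tested. Low counts, 5 to 60 for Pax7 and 6 to 49 for Myf5, limit these genes.

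Counts of all genes called moved more, here in the order psoas against EDL, soleus against EDL and soleus against psoas, from 340, 929 and 917. They were 1095, 1520 and 1382 with DESeq2, 1789, 2995 and 2340 at an adjusted p under 0.05, 27, 185 and 176 against a 2-fold change, 605, 371 and 566 with trimming, 757, 251 and 475 with the run proxy and 187, 420 and 515 with age as a covariate. For psoas against EDL they were 153 with only these muscles and 865 with sex as a covariate and without soleus 3, whose sex is not given, where leaving out soleus 3 alone gave 455. Without 1 library they ran from 61 (psoas 2) to 963 (EDL 3), from 385 (EDL 1) to 1511 (EDL 3) and from 493 (psoas 2) to 964. By CPM in place of FPKM, 5 libraries in place of 8 kept the order of members. As log2 ratios of counts, Myog to Myod1 was -0.27 in psoas and 1.54 in soleus, and Myf5 to Pax7 was 0.11, 0.63 and 0.20 in EDL, psoas and soleus, since lengths differ. By Spearman's in place of Pearson's correlation, Prkar1a and Ptpn23 (Myog), Pdcd11 (Myf5) and Aimp2 (Myf6) stayed among the 3 leading genes, and no leading gene of Myod1 or Pax7 did. The psoas ratio of Myog to Myod1 ran from -0.12 (psoas 3) to 0.16 without 1 library.

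With the replicate number as a block, 146, 586 and 539 genes were called, Myog in psoas against EDL turned to -0.00035 and Myod1 in soleus against psoas had an adjusted p of 0.181. Correlations of deviations between libraries of the same number ran from -0.234 to 0.503. Pairs with the same animal code, at 0.187 to 0.381, lay inside this range, so the correlations cannot tell whether the numbers pair the samples. By the animal codes, psoas 1 and soleus 1 shared a mouse code as well as a number. The other libraries of the same number had different codes.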
